A study of Cucumis melo with 27 samples.

Results

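CmPH, the melon gene known for its part in fruit acidity, was followed through leaf and fruit as row MELO3C025264.2, 1 of 25200 genes counted by RNA-seq in melon (Cucumis melo). The row was taken from all 27 libraries by its gene ID. The files carry no gene names, so the pairing of this ID with the name CmPH is the published one. The plants were grown in the field, and each group held 3 libraries. TTDV fruit and F39 fruit, from 2 cultivars named only by these labels, were picked 20-25, 30-35, 40 and 45 days (d) after flowering, and F39 leaves were 14 days old. No leaf of TTDV was analysed here. The labels give no treatment or genotype beyond the cultivar, and do not tell if a group's 3 libraries stem from different plants. P-values therefore measure the spread between libraries, which may in part be technical.

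As background, the sourness of a fruit depends on the organic acids and protons that its flesh cells store in the vacuole. PH genes encode membrane proteins with the features of transporters. In cucumber and tomato, silencing of PH genes gave fruit of lower acidity, and in melon the PH locus separates acidic from non-acidic types through a change in the protein. Neither the acidity of these fruits nor the allele that each cultivar carries was analysed here. The values below are abundances of the transcript in whole tissue, in which fewer expressing cells and less RNA per cell cannot be told apart.

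Library numbers stand both in the sample titles and in the deposited files. They agreed for 15 libraries: TTDV 45 d fruit, the 20-25, 30-35 and 40 d fruits of F39, and leaf. They disagreed for 12. By number, libraries 10 to 12 were TTDV 20-25 d, 13 to 15 TTDV 30-35 d, 16 to 18 TTDV 40 d and 59 to 61 F39 45 d. GEO attaches those same files to F39 45 d, TTDV 20-25 d, TTDV 30-35 d and TTDV 40 d, in that order. Groups below follow the library number, as do all 4 plots except where squares mark the attachment, and the comparisons between groups are also given by attachment where it changes them. The disputed libraries move in whole sets of 3, so both readings share a single model fit and differ only in the names given to the sets. All 45 d libraries by number carry numbers from 59 to 64 and all others numbers from 1 to 21, so that the 45 d stage and the numbering range cannot be told apart.

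Total counts ranged from 6025615 to 28731038 per library. CmPH itself had between 275 and 23959 counts, so the exact Poisson 95% interval of its level reached at most 12.5% above the value in any library. Such intervals cover counting error only, since PCR reads without molecular identifiers are not independent molecules. Levels are given in CPM, the count divided by the library total and scaled to counts-per-million units. Tissue labels were not checked against marker genes, since no source used here pairs the names of such genes with the gene IDs.

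In leaf, CmPH was at its lowest. In F39 fruit the level was 288.7, 152.1 and 258.2 CPM at 20-25 d, against 40.0, 15.3 and 12.7 CPM in F39 leaf. Every fruit library of either cultivar, 24 of 24, lay above every leaf library, whichever way the files are assigned. The lowest fruit library held 117.8 CPM, 2.95 times the highest leaf library, a gap that narrowed with the scaling given below.

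The quasi-likelihood test of edgeR, with Benjamini-Hochberg adjustment across 15130 genes, put F39 fruit averaged over 20-25, 30-35 and 40 d above leaf by 3.81 on the log2 scale (SE 0.63, edgeR adjusted p = 3.06e-05). In this comparison 52.8% of all genes tested passed the threshold of 0.05, and 5.63% had a larger positive log2 fold change. A two-sided exact permutation test over these 9 fruit and 3 leaf libraries gave p = 0.00455, the smallest that its 220 arrangements can give, for a difference of 4.69 in mean log2(CPM + 1). Already at 20-25 d CmPH was higher in fruit than in leaf, by 2.32 on the log2 scale (SE 0.63, edgeR adjusted p = 0.00528), beside 41.1% of genes called. At 40 d the log2 fold change over leaf was 5.09 (SE 0.71, edgeR adjusted p = 9.17e-06), beside 49.2% of genes called.

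The size of the fruit to leaf difference depended on the scaling. The ratio of mean CPM was 10.3 for F39 fruit at 20-25 d over leaf, whereas TMM scaling, which corrects for a few very abundant genes, gave a fitted ratio of 5.01. TMM factors were 0.877 to 1.30 in fruit and 0.53 to 0.604 in leaf. With TMM scaling the lowest fruit library held 90.5 CPM and the highest leaf library 66.2 CPM, so every fruit library still lay above leaf. With median-of-ratios scaling the log2 fold change at 20-25 d was 2.08, and the median over all genes tested moved to -0.12, against 0.085 with TMM. The call held in both. In the permutation test the difference between F39 fruit and leaf was 3.80 with TMM-scaled library sizes, against 4.69 without.

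**Figure D1:**
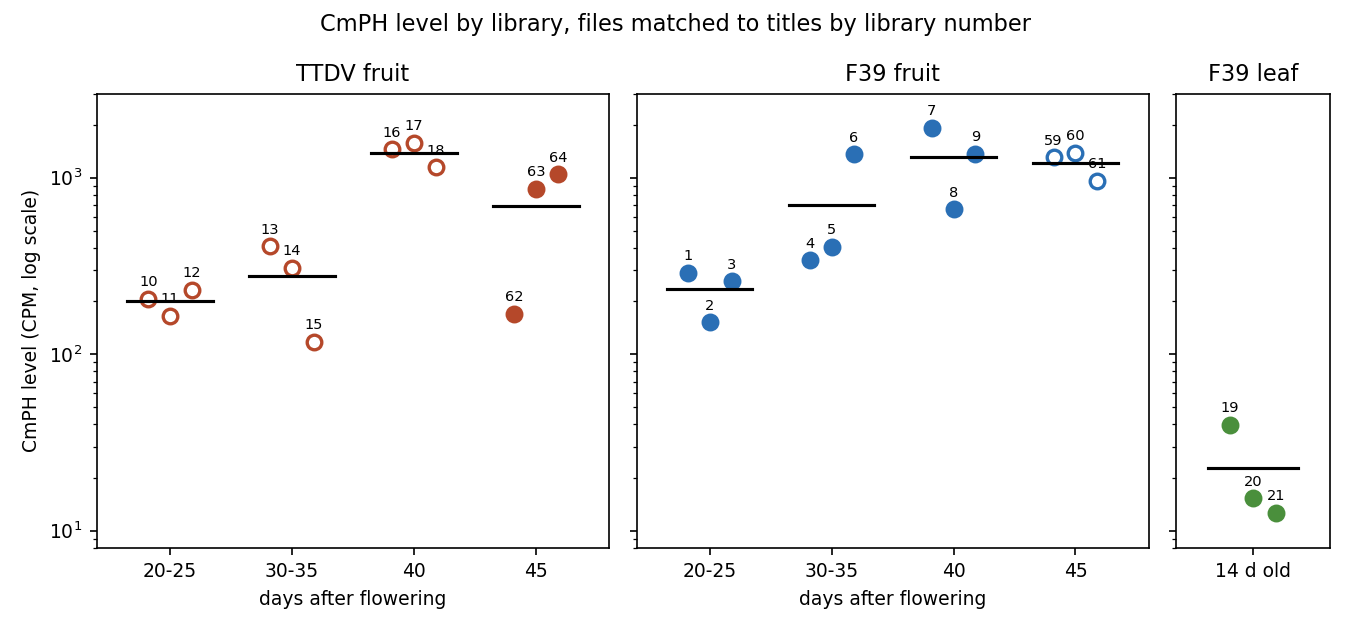
CmPH level (CPM, log scale) in each library, grouped by library number; numbers beside the points are library numbers, black lines are group means, and open points are the 12 libraries whose title and file numbers disagree. All 24 fruit libraries lie above the 3 leaf libraries, and TTDV and F39 fruit at 40 d lie above the fruit of the same cultivar at 20-25 d.

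CmPH rose during the development of F39 fruit. The level was 1919, 662.9 and 1365 CPM at 40 d, against 288.7, 152.1 and 258.2 CPM at 20-25 d, and the libraries of these stages did not overlap. The means were 1316 ± 629.7 CPM at 40 d and 233.0 ± 71.7 CPM at 20-25 d (SD, n = 3 each). The log2 fold change was 2.77 (SE 0.64, 95% interval 1.44 to 4.10, edgeR adjusted p = 0.00399), a 6.82-fold difference on the TMM scale. Over this interval 26.1% of genes were called, and 5.87% of all genes tested had a larger positive log2 fold change than CmPH. None of these libraries is disputed, and the call held in each fit that left out 1 of the 6 libraries, with log2 fold changes between 2.49 and 3.05.

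The 30-35 d stage of F39 was uneven. Its libraries stood at 341.2, 407.0 and 1355 CPM, of which libraries 4 and 5 lay nearer to 20-25 d and library 6 within the range of 40 d. The coefficient of variation was 80.9%, the highest of the 9 groups. Neither step through this stage passed the threshold. From 20-25 to 30-35 d the log2 fold change was 1.67 (95% interval 0.40 to 2.95, edgeR adjusted p = 0.105), beside 5.87% of genes called. From 30-35 to 40 d it was 1.10 (95% interval -0.16 to 2.35, edgeR adjusted p = 0.407), beside 0.74% of genes called. Without library 4 the step into 30-35 d was 1.96 and passed (edgeR adjusted p = 0.0433), and without library 6 it was 0.94 (edgeR adjusted p = 0.441). Without library 6 the step from 30-35 to 40 d was 1.84 (edgeR adjusted p = 0.215).

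At 45 d, by library number, F39 fruit held 1304, 1382 and 960.1 CPM, inside the range of the 40 d libraries. The difference of 45 d from 40 d was -0.33 on the log2 scale (95% interval -1.58 to 0.91, edgeR adjusted p = 0.780), beside 7.45% of genes called, so that levels at 45 d between 0.335 and 1.88 times those at 40 d lie within its interval. By attachment the F39 45 d libraries would be those with 206.8, 164.9 and 232.0 CPM. CmPH would then be lower at 45 d than at 40 d by a log2 fold change of -2.80 (edgeR adjusted p = 0.00212), beside 38.7% of genes called.

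In TTDV fruit CmPH was also low in young fruit and higher later. At 20-25 d the level was 206.8, 164.9 and 232.0 CPM by library number. At 30-35 d it was 409.7, 309.8 and 117.8 CPM. At 40 d it was 1449, 1575 and 1143 CPM, above every TTDV library of the earlier stages. The means were 201.2 ± 33.9, 279.1 ± 148.3 and 1389 ± 221.9 CPM in that order of stages (SD, n = 3 each).

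From 20-25 to 30-35 d in TTDV the log2 fold change of 0.54 did not pass the threshold (95% interval -0.71 to 1.78, edgeR adjusted p = 0.754), and 0.284% of genes were called. Without library 13 its direction turned, at -0.0047 (edgeR adjusted p = 1.00), and without library 15 it was 0.95 (edgeR adjusted p = 0.513). From 30-35 to 40 d CmPH rose by a log2 fold change of 2.21 (SE 0.63, edgeR adjusted p = 0.0139), beside 26.2% of genes called. This call held in all 6 fits that left out 1 library and was lost with only the 2 groups fitted, where the log2 fold change was 2.17 (edgeR adjusted p = 0.0591). Over the whole interval from 20-25 to 40 d the log2 fold change was 2.75 (SE 0.64, 95% interval 1.42 to 4.07, edgeR adjusted p = 0.00284), beside 35.1% of genes called.

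By attachment the TTDV rise lay a step earlier. The same rise of 2.21 is then named 20-25 to 30-35 d, and the step from 30-35 to 40 d has a log2 fold change of -0.28 (edgeR adjusted p = 0.860), beside 2.79% of genes called. The change from 20-25 to 40 d in TTDV is 1.93 by attachment (edgeR adjusted p = 0.0192), beside 36% of genes called. Under both assignments CmPH was higher in TTDV fruit at 40 d than at 20-25 d, and the libraries of the 2 stages did not overlap.

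The TTDV 45 d libraries, which are not disputed, held 170.0, 866.6 and 1047 CPM. Library 62 lay at the level of young fruit and the other 2 below every 40 d library of TTDV, so the 45 d and 40 d libraries of TTDV did not overlap by library number. The log2 difference of -1.06 nevertheless missed the threshold (95% interval -2.32 to 0.19, edgeR adjusted p = 0.369), beside 1.86% of genes called. Without library 62 it was -0.61 (edgeR adjusted p = 0.693). By attachment it was -0.79 (edgeR adjusted p = 0.798), beside 0.297% of genes called.

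**Figure D2:**
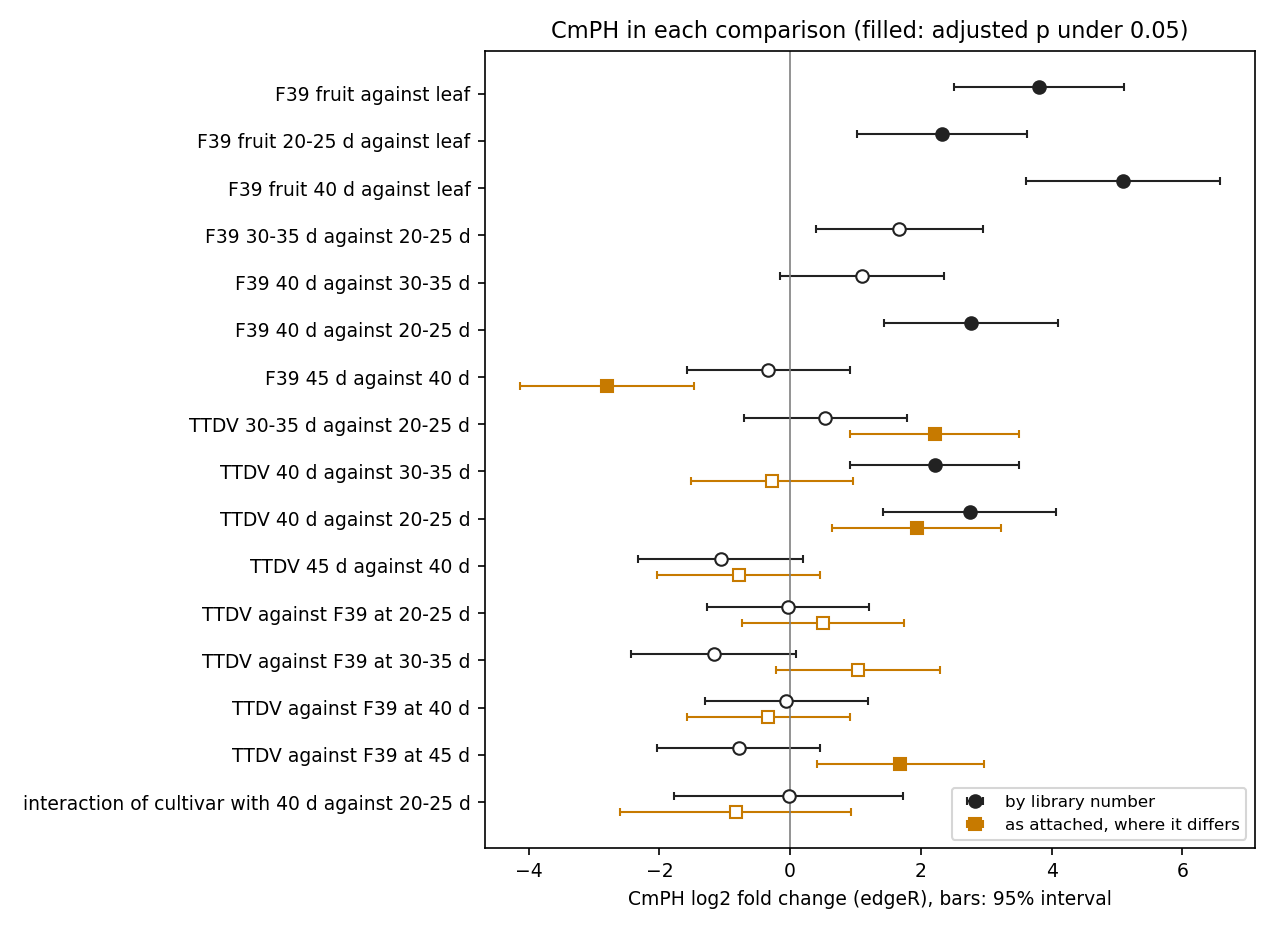
Log2 fold change of CmPH in the 16 comparisons (edgeR, x axis) with 95% intervals; circles use library numbers, squares the attachment in GEO where it differs, and filled symbols passed an adjusted p of 0.05. By number, F39 and TTDV fruit show rises of 2.77 and 2.75 between 20-25 and 40 d, and no comparison of the cultivars is filled.

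The cultivars were then compared stage by stage. By library number TTDV and F39 differed by log2 fold changes of -0.03 at 20-25 d (95% interval -1.28 to 1.21, edgeR adjusted p = 1.00), -1.17 at 30-35 d (-2.43 to 0.09, edgeR adjusted p = 0.231), -0.06 at 40 d (-1.30 to 1.19, edgeR adjusted p = 1.00) and -0.79 at 45 d (-2.04 to 0.46, edgeR adjusted p = 0.798). None passed the threshold, beside 0.185%, 8.52%, 0.185% and 0.297% of genes called in those stages. The intervals run from 0.413-fold to 2.31-fold at 20-25 d and from 0.406-fold to 2.27-fold at 40 d, so these data do not show the cultivars to be alike. At 30-35 d the TTDV libraries held 409.7, 309.8 and 117.8 CPM and the F39 libraries 341.2, 407.0 and 1355 CPM, so that 1 F39 library stood above the rest. Without that library, number 6, the log2 difference at 30-35 d was -0.42 (edgeR adjusted p = 0.753). At 45 d it was -0.37 without library 62 and -1.23 without library 64 (edgeR adjusted p = 0.997 and 0.715).

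Pooled over the 4 stages by library number, TTDV lay below F39 by -0.59 in mean log2(CPM + 1), with p = 0.0982 in a two-sided exact permutation test within stages (160000 arrangements). The differences that this averages were -0.17, -1.21, 0.20 and -1.16 at 20-25, 30-35, 40 and 45 d. On this measure, without TMM scaling, TTDV lay above F39 at 40 d. The edgeR log2 fold change there was -0.06, so the sign at 40 d depended on the measure. Without library 8 of F39 40 d the same exact permutation test gave -0.70 and p = 0.0181, the only 1 of 24 such tests leaving out a library to pass 0.05. Without library 62 it gave -0.38 (exact permutation p = 0.176), without library 6 -0.43 (exact permutation p = 0.194) and without library 15 -0.46 (exact permutation p = 0.198). By attachment the pooled difference had the other sign, at 0.70 (exact permutation p = 0.0520). Neither pooled difference over all 24 fruit libraries passed 0.05, and its sign rests on which assignment of files is right. By attachment CmPH was higher in TTDV at 45 d, by 1.68 on the log2 scale (edgeR adjusted p = 0.0339), beside 40.2% of genes called. The other 3 attached comparisons, at 0.50, 1.04 and -0.33 for 20-25, 30-35 and 40 d, did not pass (edgeR adjusted p = 0.860, 0.354 and 0.780), beside 0.218%, 4.34% and 7.45% of genes called.

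The rise from 20-25 to 40 d was then compared between the 2 cultivars by library number. Its interaction with cultivar, the TTDV change minus the F39 change, was -0.02 on the log2 scale (95% interval -1.78 to 1.73, edgeR adjusted p = 1.00). By edgeR 0% of genes passed this interaction test, beside 1414 genes at an unadjusted p under 0.05 and 115 genes called by DESeq2. By attachment the interaction for CmPH was -0.84 (95% interval -2.60 to 0.93, edgeR adjusted p = 0.634), beside 4.82% of genes called.

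Ordered by mean level, the groups by library number ran from TTDV 40 d (1389 CPM) through F39 40 d (1316), F39 45 d (1215), F39 30-35 d (701.2), TTDV 45 d (694.4), TTDV 30-35 d (279.1), F39 20-25 d (233.0) and TTDV 20-25 d (201.2) to F39 leaf (22.6). Each neighbouring pair of fruit groups overlapped in its libraries. The gap between TTDV 20-25 d and leaf was the only neighbouring gap with no overlap, at a ratio of 8.89 between the means. By attachment the sets of libraries keep these levels under other names. The set at 1389 CPM is then TTDV 30-35 d, that at 1215 CPM TTDV 40 d, that at 279.1 CPM TTDV 20-25 d and that at 201.2 CPM F39 45 d.

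CmPH varied more between libraries of a group than most genes. Its pooled within-group SD was 0.81 in log2(TMM-scaled CPM + 1), a value that 83.9% of the genes tested fell below. Among 276 genes within 0.5 of its mean level on that scale the share was 84.1% and their median SD was 0.54. The spread within a group ran from 1.38-fold between the highest and lowest library in TTDV 40 d (TTDV 30-35 d by attachment) to 6.16-fold in TTDV 45 d.

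A transcriptome position was used to describe where each library stood in fruit development as a whole. It was set to 0 at the mean of F39 20-25 d and 1 at the mean of F39 40 d over 10194 genes, with CmPH left out and each library left out of any mean it would enter. The order of CmPH within a group matched this position only in libraries 10 to 12 and 59 to 61. An order of 3 libraries can match by chance. In libraries 10 to 12 (TTDV 20-25 d by number, F39 45 d by attachment) CmPH was 164.9, 206.8 and 232.0 CPM at positions of -0.052, -0.014 and 0.016. In libraries 59 to 61 (F39 45 d by number, TTDV 40 d by attachment) it was 960.1, 1304 and 1382 CPM at 0.832, 0.873 and 0.896. In all other fruit groups it did not match, those that are not disputed included. Within F39 20-25 d, library 2 stood at 0.090, the highest position of its group, with 152.1 CPM, the lowest level. Library 15 (TTDV 30-35 d by number, TTDV 20-25 d by attachment) had the lowest CmPH of its set at the middle position, 0.087. In libraries 16 to 18 (TTDV 40 d by number, TTDV 30-35 d by attachment) the order was reversed. By rising position they held 1575, 1449 and 1143 CPM at 0.690, 0.892 and 0.922. Within F39 30-35 d, library 5 stood at 0.954 with 407.0 CPM, and library 6 at 0.561 with 1355 CPM. Library 8 of F39 40 d had the highest position of all, 1.02, and the lowest CmPH of its group. Library 62 of TTDV 45 d stood at 0.896, the highest position of its group, with 170.0 CPM, within the range of the young fruit. Libraries 63 and 64 stood at 0.770 and 0.733 with 866.6 and 1047 CPM. On this line, drawn between stages of F39 fruit, library 62 thus did not stand among the young fruit. The cause of its low CmPH was not tested.

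**Figure D3:**
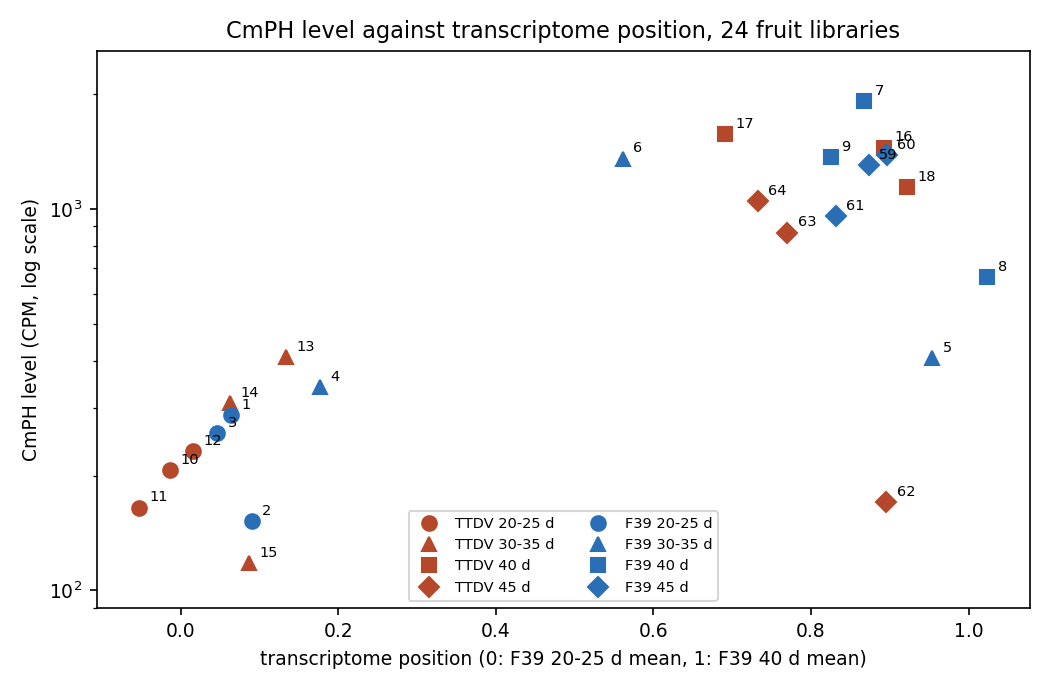
CmPH level (CPM, log scale) against transcriptome position (0 at the F39 20-25 d mean, 1 at the F39 40 d mean) in the 24 fruit libraries, grouped by library number, with library numbers beside the points. Libraries 5 and 62, at positions 0.954 and 0.896, have 407.0 and 170.0 CPM, and library 6, at 0.561, has 1355 CPM.

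The genes whose levels most resembled CmPH were sought by Pearson correlation of log2(CPM + 1) over all 27 libraries, which does not depend on the assignment. Among 10471 genes averaging 5 CPM or more, 451 (4.31%) had r of 0.8 or more and 125 (1.19%) had r of -0.8 or less, with a median r of 0.34. The libraries share the contrast between leaf and fruit and that between young and later fruit, so a high r is common to genes with either. Over the 24 fruit libraries alone, 90 genes (0.86%) reached 0.8 and 45 (0.43%) reached -0.8. The correlations are given as descriptions, with no test.

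By Pearson r over 27 libraries MELO3C017942.2 came nearest to CmPH, with r = 0.94. Over the 24 fruit libraries its r of 0.87 ranked 6 and its Spearman rho of 0.88 ranked 4, and over 27 libraries its rho of 0.91 ranked 3. It averaged 1041 ± 159.8 CPM in F39 fruit at 40 d, 195.8 ± 84.4 CPM at 20-25 d and 10.3 ± 6.95 CPM in F39 leaf (SD, n = 3 each). In F39 45 d by library number it held 380.0 to 422.5 CPM, below its 40 d libraries, whereas CmPH at 45 d stayed within its 40 d range. By attachment these libraries are TTDV 40 d, and F39 45 d is at 156.5 to 179.8 CPM for MELO3C017942.2. MELO3C005564.2 came next by Pearson r over 27 libraries, also at 0.94. Its r of 0.86 over fruit ranked 15 and its rho of 0.87 over 27 libraries ranked 14, while its rho of 0.81 over fruit ranked 32. MELO3C005564.2 averaged 1321 ± 510.3 CPM in TTDV fruit at 40 d and 51.5 ± 33.6 CPM at 20-25 d by library number (SD, n = 3 each). By attachment MELO3C005564.2 averaged 659.2 ± 25.2 CPM in TTDV fruit at 40 d and 85.3 ± 35.6 CPM at 20-25 d (SD, n = 3 each).

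In the opposite direction MELO3C014229.2 had r = -0.90 over 27 libraries and -0.82 over fruit, and MELO3C010668.2 had r = -0.89 and -0.81. They were the lowest by Pearson r over 27 libraries, and ranked 20 and 25 from the bottom over fruit. By Spearman rho they ranked 8 and 4 from the bottom over 27 libraries, and 74 and 46 from the bottom over fruit. MELO3C014229.2 reached the mean of 5 CPM only through leaf, where it averaged 40.0 CPM. Its fruit groups averaged 0.035 to 3.48 CPM, near the floor, so its r over fruit rests on low counts. MELO3C010668.2 averaged 0.264 ± 0.046 CPM in F39 fruit at 40 d, 9.80 ± 4.51 CPM at 20-25 d and 79.9 ± 9.19 CPM in F39 leaf (SD, n = 3 each). Its F39 40 d libraries held 0.216 to 0.308 CPM, also near the floor. The small SD at 40 d therefore rests on low counts and is no guide to the spread between libraries. MELO3C014229.2 held 0 to 0.541 CPM in F39 fruit at 40 d, 1.69 to 3.33 CPM at 20-25 d and 19.1 to 65.7 CPM in F39 leaf. The files give no name or function for these 4 genes. Other genes of acid storage and organic acid metabolism were not described, because no source used here pairs them with the IDs.

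**Figure D4:**
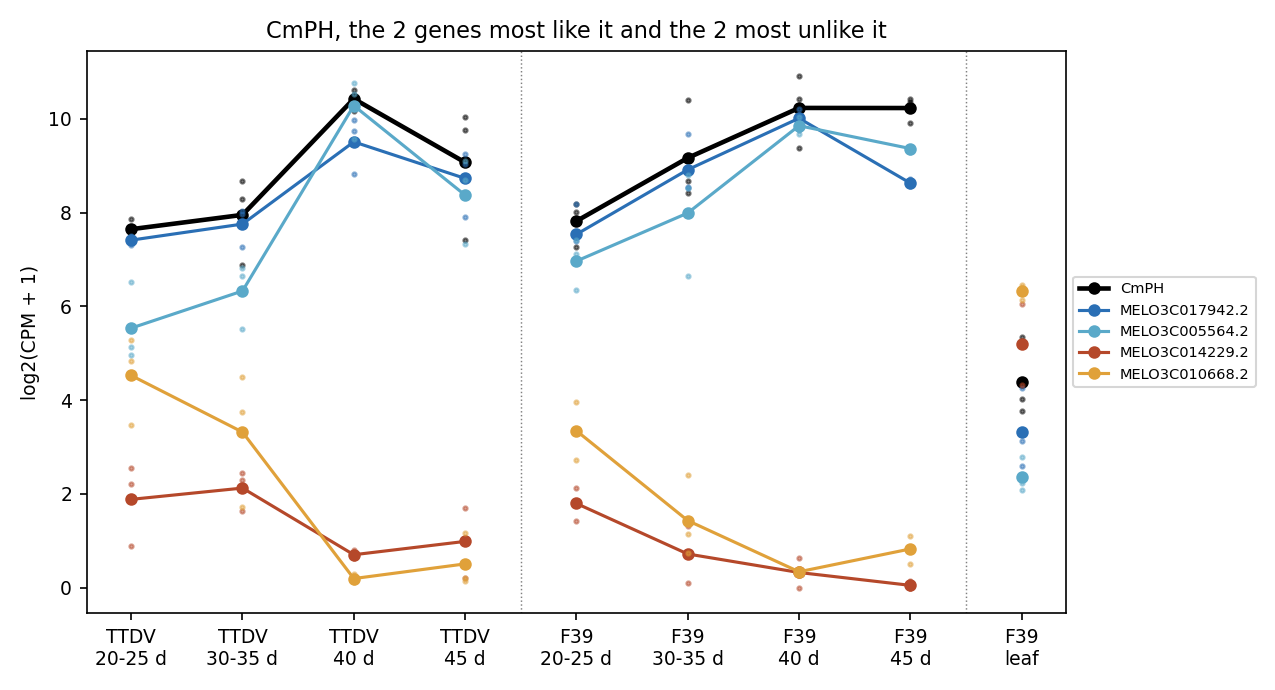
Level, as log2(CPM + 1), of CmPH, of the 2 genes with the highest and of the 2 with the lowest Pearson r with it over 27 libraries; large points are group means by library number, small points libraries. CmPH and MELO3C017942.2 (r = 0.94) are high at 40 d and low in leaf, and MELO3C010668.2 (r = -0.89) is the reverse; levels are not corrected for gene length, so the shapes and not the heights are to be compared.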

How the data were processed

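Each library has its own deposited file of raw gene counts, which the authors did not normalize. The submitters' processing notes name STAR 2.5.4b and edgeR 3.12.1 without saying what each did. Per the labels' protocols, RNA came from a Trizol extraction and cDNA from a kit by NuGen. For the counting program, genome build, annotation and strand setting the entry is: not given in the sources used here. Therefore reads shared with near-identical or overlapping genes are uncertain. The RefSeq table for USDA_Cmelo_AY_1.0 lists 1 gene with the symbol PH but matched 0 of the 25200 IDs. No 2 files were identical (0 pairs).

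Genes were kept by filterByExpr (15130), scaled by TMM, and fitted with edgeR 4.0.16 in R 4.3.3 as 1 mean per group over all 27 libraries, with robust quasi-likelihood F-tests in 16 contrasts, Benjamini-Hochberg adjustment over all genes tested and a threshold of 0.05. Several contrasts share groups, so they are not independent. SE was the absolute log2 fold change divided by the root of F. The edgeR and permutation scripts were tested on simulated data. Permutation tests used log2(CPM + 1). Alternatives were DESeq2 1.42.0, other scaling and filters (the stricter one 1 CPM in 3 libraries and a mean of 5 CPM), fewer groups or libraries, and files as attached in GEO. Besides CmPH, the 2 genes with the highest and the 2 with the lowest Pearson r were named. The gene, its library-number assignment and the tests were chosen with earlier results of these data known. Tables and figures used Python 3.11.15, pandas 2.3.3 and matplotlib 3.10.9.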

Additional observations from a re-analysis of the deposited data

How the results depend on the processing

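The rises of CmPH in F39 fruit over leaf and from 20-25 to 40 d in both cultivars passed the threshold under all alternatives run, with log2 fold changes from 3.53 to 4.38 for the mean of F39 fruit over leaf (3.54 to 4.38 leaving out 1 library), from 2.49 to 3.05 for F39 and from 1.93 to 2.83 for TTDV. Of 251 alternative values, 229 kept their direction and side of the threshold, 17 changed sign, 4 more newly passed it and 1 more no longer did. Of the 17, 2 also crossed the threshold, so that 5 in all newly passed it and 2 no longer did. By attachment F39 45 against 40 d was -2.80 and TTDV 30-35 against 20-25 d was 2.21. Both newly passed without a change of sign. TTDV 40 against 30-35 d was -0.28, which changed sign and lost its call. TTDV against F39 at 45 d was 1.68, which changed sign and newly passed. The differences of TTDV from F39 at 20-25 and 30-35 d (0.50 and 1.04) and pooled over stages (0.70) changed sign without crossing the threshold. TTDV 40 against 30-35 d was 2.17 and no longer passed with only the groups compared, where fewer libraries estimate the spread. TTDV against F39 at 20-25 d changed sign with DESeq2 (0.015), median-of-ratios scaling (0.015) and the stricter filter (0.025), all beside a value of -0.03. Leaving out 1 library, it ran from -0.18 to 0.16, TTDV against F39 at 40 d from -0.38 to 0.18, TTDV 30-35 against 20-25 d from -0.0047 to 0.95, the interaction from -0.38 to 0.18, F39 30-35 against 20-25 d from 0.94 to 1.96, TTDV against F39 at 45 d from -1.23 to -0.37 and the cultivar difference pooled over stages from -0.71 to -0.38. The cause of these changes was not tested. No paired analysis was possible because the labels give the groups no shared replicate numbers. The number of genes called moved by over 1.5 times in several comparisons: over all alternatives F39 30-35 against 20-25 d (888) ran from 0 to 2222, F39 40 against 30-35 d (112) from 0 to 740, F39 40 against 20-25 d (3954) from 2594 to 4919, F39 45 against 40 d (1127) from 236 to 5855, TTDV 30-35 against 20-25 d (43) from 0 to 3968, TTDV 40 against 30-35 d (3968) from 422 to 5006, TTDV 45 against 40 d (281) from 0 to 1101, TTDV against F39 at 20-25, 30-35, 40 and 45 d (28, 1289, 28 and 45) from 11 to 374, 0 to 2687, 0 to 1127 and 9 to 6075, and the interaction (0) from 0 to 729. Where an edgeR count was 0, 1025 to 2382 genes had an unadjusted p under 0.05; DESeq2 called 115 or more in each comparison. Depth was no limit for CmPH itself, which had at least 275 counts in each library, while 3 libraries a group limit the tests.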
